A study of Mus musculus with 5 samples.

Results

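The 71 genes described here are the interferon response and MHC class I genes of mouse neural stem/progenitor cells (NSPCs), from the interferon receptors through their kinases and transcription factors to the genes that interferons switch on. The rule uses symbols and no measured values, although it was set with earlier results of these data known. It takes the symbols of interferon receptors, Jak kinases, Stat and Irf factors, Ifi, Oas and Gbp effectors and the classical and nonclassical H2 genes, together with a list of single symbols, of which 11 of 12 were listed. The rule found 71 of the 12572 gene symbols in the deposited table, read through 108 transcripts. Irf7 and Dhx58 were not analysed here, and other genes of the pathway outside these 71 enter only through lists.

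The study asked which genes depend on the p75 neurotrophin receptor (p75NTR) in cultured NSPCs. RNA-Seq covered 2 libraries labelled WT (genotype p75NTR+/+, replicates 1 and 4) and 3 labelled p75NTR-/- (replicates 1, 2 and 4), all of strain C57BL/6J, the WT cells coming from littermates of the p75NTR-/- animals. All 5 cultures grew without differentiation or other treatment in FGF-2 and EGF, each at 20 ng/ml. The labels give E12.5 embryos, whereas the study's methods describe adult NSPCs, and whether a library is 1 animal or a pool is not given in the sources used here.

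Interferons act on cells through paired receptors. Type I interferons bind Ifnar1 with Ifnar2 and use the kinases Tyk2 and Jak1, whereas interferon gamma binds Ifngr1 with Ifngr2 and uses Jak1 and Jak2. The kinases phosphorylate Stat factors, which bind interferon-stimulated response elements together with Irf9 and gamma-activated sites as dimers. Among the targets are the MHC class I heavy chains, B2m, the peptide transporter and the immunoproteasome, which together display peptides on the cell surface, and neural cells are known for keeping this display low until interferon arrives.

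A gene's value is its gene sum, the normalized counts of its listed transcripts added up, and values are always given first for WT replicates 1 and 4 and then for p75NTR-/- replicates 1, 2 and 4. Levels are compared between genes only in TPM, the abundance unit of the quantifier, which allows for transcript length. The libraries held between 11688211 and 14452396 counts, so that 3 counts, the limit that a count of 0 allows, correspond to 2.94 to 3.60 normalized counts; this limit covers counting error only. Ngfr, which encodes p75NTR, had 0.98 and 2.08 normalized counts in the libraries labelled WT and 9.89, 140.6 and 251.4 in those labelled p75NTR-/-. The targeted gene thus ran against the labels, so libraries are named by their labels throughout, and every direction below rests on the labels. A whole-gene sum does not show which exons the reads came from. Replicates are samples that the labels number separately, and p-values measure the spread between these samples.

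No member passed the test between the labels. Of all 12588 gene sums tested with limma, 1 was called (a mean of at least 50 normalized counts, a change of at least 1.5-fold and an adjusted p under 0.05), or 0.00794%, and of the 71 members 0 were. Adjusted p-values of the members ran from 0.934 to 0.998 in limma. Without adjustment 5 members had p under 0.05 in limma (Ifi27l2a, Parp14, H2-Q4, Ifit3b and H2-T23), beside 2.08% of all gene sums. Both edgeR and DESeq2, run on recovered counts, also called 0 members. Each had 2 members with unadjusted p under 0.05, beside 260 of all gene sums in edgeR and 377 in DESeq2. In DESeq2 the 2 were H2-T23 and Ifi27, so of the 5 named for limma only H2-T23 was among them. Among the 22227 transcripts 0.0135% were called and 0 of the members' 108. In limma the unadjusted p was under 0.05 for 5 member transcripts, where the share over all transcripts was 3.14%.

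More differences lay below 0 than above, although none passed the test. The log2 difference, p75NTR-/- minus WT, was above 0 for 21 members and below 0 for 50, with a median of -0.18 over the members and 0.0039 over all gene sums. All 3 libraries labelled p75NTR-/- lay below both labelled WT for 10 members (H2-DMa, H2-T23, Ifi27, Ifi27l2a, Ifih1, Ifit3b, Parp14, Psmb9, Stat5b and Usp18), where the share over all gene sums was 7.53%. They lay above both for 4 (H2-Q4, H2-T10, Ifnar1 and Isg15), where it was 7.52%. With p75NTR-/- replicate 4 left out, 33 members (46.5%) lay below both WT libraries against 22.3% of all gene sums, and 7 lay above against 23.8%. The median difference was -0.25 between the libraries numbered 1 and 0.02 between those numbered 4. Here, as in any bulk sample, fewer cells of a kind and less RNA per cell cannot be told apart.

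**Figure D1:**
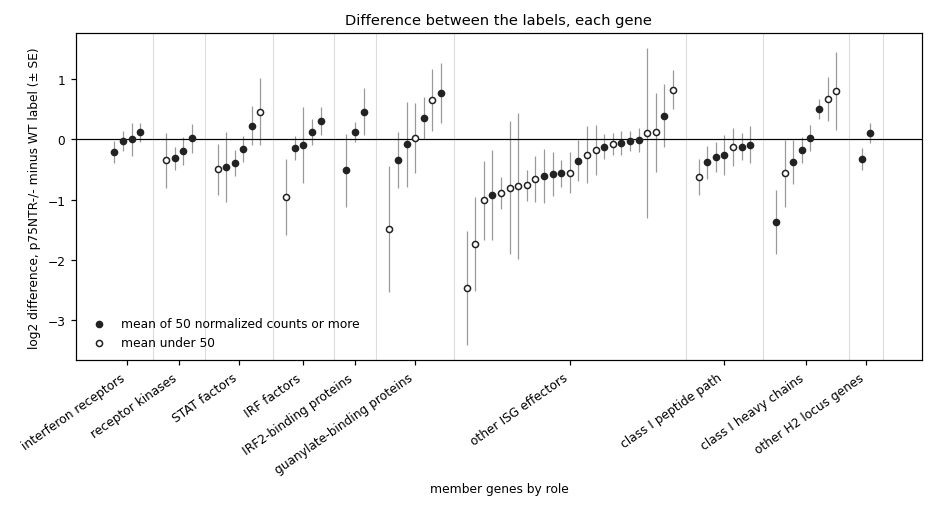
Log2 difference between the labels (p75NTR-/- minus WT, vertical axis, on log2 of gene sum plus 1) for each of the 71 members, grouped by role along the horizontal axis. Points are estimates, bars are ± SE from limma, filled points have a mean of 50 normalized counts or more and open points less. Most points sit below 0, and 0 of 71 were called.

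More members separated by replicate number than by label. The same held over all gene sums, of which 15% did not overlap between the labels. Both libraries numbered 4, 1 of each label, lay above the other 3 libraries for 29 members (40.8%), beside 23.3% of all gene sums. They lay below the other 3 for 6 members (Ifi30, Irf3, Parp12, Rnf213, Stat2 and Tyk2), beside 21.1% of all gene sums, and overlapped them for 36. This split was looked for after earlier results of these data were known and rests on 2 libraries against 3, so no test is given. The median log2 difference, replicates 4 minus the others, was 0.38 over the members and 0.013 over all gene sums. A library labelled p75NTR-/- and numbered 1 or 2 held the lowest value for 48 members (67.6%), beside 36.2% of all gene sums.

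**Figure D2:**
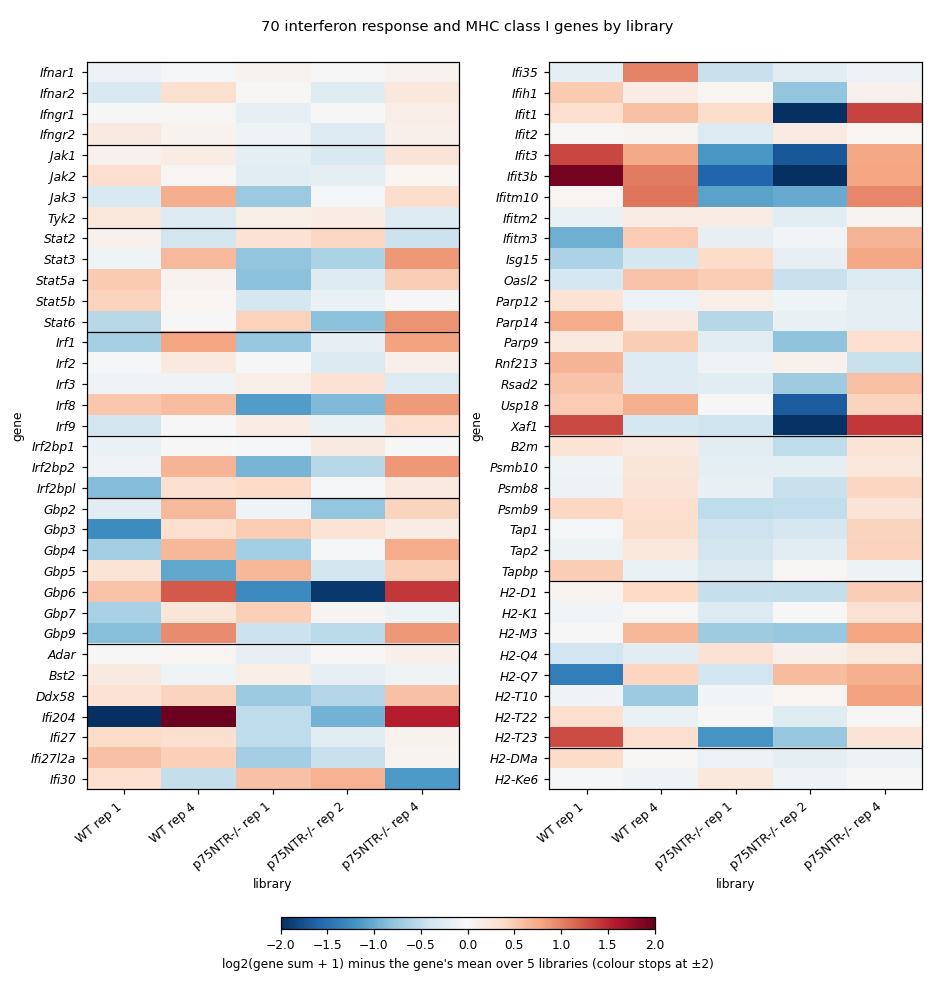
Heat map of 70 of the 71 members (rows, ordered by role with lines between roles) in the 5 libraries (columns). Colour is log2 of gene sum plus 1 minus the gene's mean over the 5 libraries, and the scale stops at ±2; WT replicate 4 and p75NTR-/- replicate 4 are red together in many rows of both panels, among them Stat3, Irf1, Gbp9 and Ifitm10.

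Markers of other cell types were mixed over the same split. Gfap, an intermediate filament of astrocytes, had 241 and 680.3 normalized counts in the libraries labelled WT and 11.9, 1.20 and 746 in those labelled p75NTR-/-, and Aqp4, the astrocyte water channel, had 395 and 696 (WT) and 69.3, 114 and 566 (p75NTR-/-). Both had the libraries numbered 4 on top, whereas the other astrocyte markers did not: S100b had 1421 and 347 (WT) and 475, 369 and 409.9 (p75NTR-/-), highest in WT replicate 1, and Aldh1l1 overlapped. Of 13 microglia and macrophage markers only Cd68 was analysed here, with 40.2 and 160.2 (WT) and 37.6, 55.3 and 227 (p75NTR-/-), again highest in the libraries numbered 4. Of 6 endothelial markers 2 were analysed and they differed, since Flt1 had 31.4 and 213 (WT) and 30.7, 33.6 and 242 (p75NTR-/-) while Kdr had 38.3 and 37.5 (WT) and 62.3, 42.0 and 42.3 (p75NTR-/-). None of the 3 neuron, 3 oligodendrocyte lineage and 2 fibroblast and pericyte markers measured had both libraries numbered 4 on top, and Map2 and Cspg4 had both below the rest, with log2 differences of -0.68 and -0.65, replicates 4 minus the others. The summed TPM of the 4 astrocyte markers was 894.6 and 549.7 under the WT label and 444.3, 466.7 and 614.9 under the p75NTR-/- label. That of the 9 neural stem/progenitor markers, all of them measured, ran from 8182 to 9525, most of it Fabp7 at 6270 to 6927. Of these 9, Vim had both libraries numbered 4 on top, at 20556 and 40938 (WT) and 23981, 23753 and 44562 (p75NTR-/-) normalized counts. Hes5 and Olig2 had both below the rest, with log2 differences of -2.6 and -1.2, replicates 4 minus the others. The other 6 overlapped. The part of these cells or states in the members' pattern was not tested.

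Promoter sequence could be read for 59 of the 71 members from the RefSeq table of GRCm38.p6, in windows of 250 bases before and 50 after the start site. The core of the interferon-stimulated response element, written GAAANNGAA, and the gamma-activated site, written TTCNNNGAA, were searched on both strands, and matches of the 2 motifs may overlap. The response element core was in 22 of the members' 72 windows (30.6%) and in 8.56% of all 32851 windows. The gamma-activated site was in 15 of the 72 (20.8%) and in 8.30% of all windows. In the 250 bases before the start alone the counts were 20 (27.8%) and 11 (15.3%), beside 7.13% and 7.02% of all windows. Windows of 1 gene can share bases, so these shares describe letters in windows and no site in use.

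The stretches below hold matches of either motif before the RefSeq start sites of members with quite different levels. They run from B2m, the most abundant, to Ifit3b, whose sum spanned 21.5-fold between libraries. The lowest library of Ifit3b, p75NTR-/- replicate 2, held 3 counts, the counting limit given above. RefSeq starts can differ from the gene spans given here, which are from GENCODE. The H2-T23 stretch and the Gbp2 match lie inside those spans, so they are before the start only by RefSeq. Capitals mark a single motif match in each stretch, and further matches in those of Isg15, Ifit3 and Ifit3b are not marked. Each stretch is written 5′ to 3′ on the gene's own strand, and a match on the opposite strand is printed as its reverse complement. B2m is shown at chr2:122147523-122147581 (+) with a response element core 139 bases before the start. Irf1 is shown at chr11:53769899-53769957 (+) with a gamma-activated site 90 bases before it. Isg15 (chr4:156200857-156200915, minus strand), Gbp2 (chr3:142620580-142620638, plus strand) and H2-T23 (chr17:36032791-36032849, minus strand) hold response element cores. The stretches of Ifit3 (chr19:34583383-34583441) and Ifit3b (chr19:34607779-34607837), both on the plus strand, differed at 0 of 59 bases.
B2m: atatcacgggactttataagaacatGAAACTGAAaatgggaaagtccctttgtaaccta
Irf1: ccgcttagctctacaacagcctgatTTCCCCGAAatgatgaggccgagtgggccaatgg
Isg15: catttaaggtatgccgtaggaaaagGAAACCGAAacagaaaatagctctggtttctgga
Gbp2: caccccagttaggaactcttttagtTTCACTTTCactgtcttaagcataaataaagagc
H2-T23: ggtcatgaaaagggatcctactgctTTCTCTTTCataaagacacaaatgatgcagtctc
Ifit3: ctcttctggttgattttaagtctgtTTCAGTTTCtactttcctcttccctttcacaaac
Ifit3b: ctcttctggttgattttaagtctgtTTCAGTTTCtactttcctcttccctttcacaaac

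All 4 receptor chains were measured, with ranges of 1.14- to 1.55-fold over the libraries. Ifnar1 (chr16:91485238-91507441), a chain of the type I receptor, had 1090.3 and 1165 normalized counts under the WT label and 1242, 1174 and 1242 under the p75NTR-/- label. Its 3 values labelled p75NTR-/- all lay above the 2 labelled WT, but the difference was 0.11 ± 0.15 (log2 ± SE, limma adjusted p = 0.934). Ifnar2 (chr16:91372783-91405589), its partner, had 203 and 315 (WT) and 256, 213 and 294 (p75NTR-/-), with both libraries numbered 4 on top and the labels overlapping. Ifngr1 (chr10:19591949-19610229), which binds interferon gamma, had 516 and 520.1 (WT) and 458, 508 and 563 (p75NTR-/-). Ifngr2 (chr16:91547072-91565623), its signalling partner, had 586 and 542 (WT) and 486, 429 and 551 (p75NTR-/-). Neither chain of the gamma receptor separated the labels, with log2 differences of -0.03 ± 0.17 and -0.21 ± 0.18. In TPM the means were 30.2 for Ifnar1, 15.4 for Ifnar2, 16.4 for Ifngr1 and 25.6 for Ifngr2, so every chain needed for either receptor was measured in all 5 libraries. Interferon genes themselves were not analysed here.

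Of the receptor kinases, Jak1, which serves both receptors, was the most abundant at a mean of 32.2 TPM. Its gene sum was 2757 and 2901 under the WT label and 2269, 2116 and 3119 under the p75NTR-/- label, lowest in p75NTR-/- replicates 1 and 2. Jak2, the partner of Jak1 at the gamma receptor, had 1706 and 1380.4 (WT) and 1149.7, 1170.1 and 1389 (p75NTR-/-), with a log2 difference of -0.32 ± 0.19. Tyk2, the partner at the type I receptor, had 339.6 and 242 (WT) and 315, 319.6 and 242 (p75NTR-/-), and here both libraries numbered 4 were the lowest. Jak3, a kinase best known from lymphocytes, stayed between 9.89 and 29.1 normalized counts. The libraries numbered 4 were thus the highest for Jak1 and the lowest for Tyk2.

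Among the Stat factors, Stat2 (chr10:128270559-128292849), which carries the signal of type I interferons, had 234 and 171 normalized counts under the WT label and 267, 292 and 163 under the p75NTR-/- label, with the libraries numbered 4 lowest. Stat3 (chr11:100885098-100939540), the factor of the interleukin-6 family receptors, had a mean of 46.4 TPM. Its sum was 2045 and 3401 under the WT label and 1258, 1407 and 3947 under the p75NTR-/- label. Replicates 4 of both labels were far above the rest and the labels overlapped, so the difference of -0.46 ± 0.58 (limma adjusted p = 0.934) was smaller than its error, and it was -0.70 between the libraries numbered 1 and 0.21 between those numbered 4. Of its 3 listed transcripts, ENSMUST00000103114, which made 0.749% to 3.36% of the sum, averaged 89.0 ± 28.7 normalized counts over the 2 libraries labelled WT and 26.8 ± 7.71 over the 3 labelled p75NTR-/- (mean ± SD). That was the smallest unadjusted p among the member transcripts (0.00919), with an adjusted p of 0.962 in limma.

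Stat5b, which acts for growth hormone and related cytokines, had 356 and 267 (WT) and 206, 238 and 261 (p75NTR-/-) normalized counts, all 3 libraries labelled p75NTR-/- below both labelled WT, with a log2 difference of -0.40 ± 0.21 (limma adjusted p = 0.934). Stat5a and Stat6 reached at most 21.6 and 33.8, and their labels overlapped. Stat5a shares 21.5% of its 31-base stretches with Stat5b.

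Outside the rule, single genes of Jak-Stat signalling gave the same split. Socs3, a feedback inhibitor that Stat3 induces and that was read with the list of other interferon-stimulated genes, had 6.87 and 70.7 normalized counts under the WT label and 3.96, 8.41 and 84.5 under the p75NTR-/- label. Osmr, the oncostatin M receptor, from the list of other Jak-Stat receptors and regulators, had 1.96 and 183 (WT) and 0.990, 0 and 232 (p75NTR-/-). In both, replicates 4 of either label stood alone, with the other 3 libraries at or below 8.41. In the whole Jak-Stat list, 23 of 24 genes were measured and 0 were called. Both libraries numbered 4 were on top for 8 of the 23 and below the rest for 5 (Lifr, Socs6, Pias1, Pias2 and Ptpn11), beside 23.3% and 21.1% of all gene sums, with a median difference between the labels of 0.02.

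The Irf factors bind the promoters of interferon targets. Irf1 (chr11:53770014-53778374), an activator that is itself a target of interferon gamma and holds the motif match printed above, had 72.6 and 199.7 normalized counts under the WT label and 68.3, 103 and 202 under the p75NTR-/- label. The 2 libraries numbered 4 were about equal to each other and above the other 3, and the difference between the labels was -0.10 ± 0.63. Irf3 (chr7:44997648-45002848), the factor downstream of nucleic acid sensors, had 433 and 433 (WT) and 499, 554 and 375 (p75NTR-/-), with the libraries numbered 4 lowest. Irf9 (chr14:55603571-55610030), the partner of Stat2, had 62.8 and 82.2 (WT) and 91.0, 74.5 and 104 (p75NTR-/-), a difference of 0.30 ± 0.23, and its labels overlapped. Irf2, an antagonist of Irf1, had 316 and 367 (WT) and 319.6, 263 and 345 (p75NTR-/-). Its mean of 101.1 TPM ranked second among the members, but 3 listed transcripts enter it, and 1 of 535 exonic bases had 88.8 of the 110.6 TPM in WT replicate 4 with only 48.9 of 367.2 normalized counts, so this rank rests on a short transcript. Irf8, a factor of myeloid cells, ran from 4.95 to 22.2 normalized counts, lowest in p75NTR-/- replicates 1 and 2.

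The 3 Irf2-binding proteins, corepressors named for their partner, entered by symbol and are not Irf factors. Irf2bp2 had 660.4 and 1116 normalized counts under the WT label and 364, 469.7 and 1269.8 under the p75NTR-/- label, again highest in the libraries numbered 4. Irf2bpl had 309 and 707 (WT) and 739, 549 and 649.7 (p75NTR-/-), and here WT replicate 1 alone was low. Irf2bp1 had 367 and 403 (WT) and 393, 458 and 408 (p75NTR-/-). The log2 differences between the labels were -0.51 ± 0.61, 0.45 ± 0.39 and 0.12 ± 0.17, each with a limma adjusted p of 0.934.

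**Figure D3:**
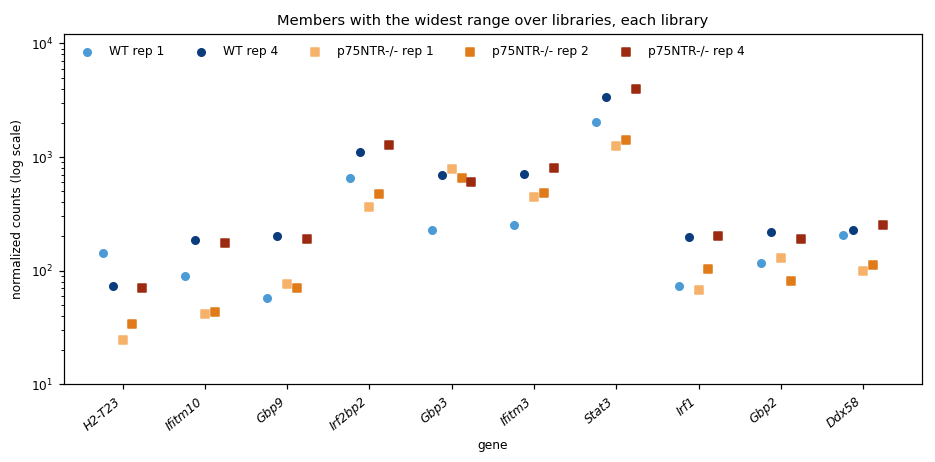
Normalized counts (log axis) of the 10 members of mean 50 or more with the widest range over the libraries, ordered by the ratio of highest to lowest library from 5.79 (H2-T23) to 2.53 (Ddx58). Circles are the libraries labelled WT and squares those labelled p75NTR-/-; in Ifitm10, Gbp9, Irf2bp2, Ifitm3, Stat3, Irf1, Gbp2 and Ddx58 the dark circle and the dark square (both numbered 4) are the 2 highest.

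Guanylate-binding proteins are large GTPases that act against intracellular pathogens, and 7 were listed. Gbp2 (chr3:142620602-142638008) had 118 and 217 normalized counts under the WT label and 131, 80.5 and 190.2 under the p75NTR-/- label. Gbp9 (chr5:105077630-105139539) had 56.9 and 201 (WT) and 76.2, 70.9 and 189 (p75NTR-/-). In both genes the libraries numbered 4 were the highest and the labels overlapped, with differences of -0.34 ± 0.46 and -0.09 ± 0.70. Gbp3 (chr3:142560026-142573209), the most abundant of the family, had 227 and 689.7 (WT) and 779.7, 656 and 602 (p75NTR-/-). Only WT replicate 1 stood apart there, and without it the log2 difference went from 0.77 to -0.03. Gbp7, next to Gbp3 on the chromosome, had 186 and 347 (WT) and 409, 305 and 274 (p75NTR-/-), also lowest in WT replicate 1. Gbp6, with 45.1 and 71.8 (WT) and 11.9, 7.21 and 82.4 (p75NTR-/-), spanned 11.4-fold and was high in the libraries numbered 4, but 94.4% of its 31-base stretches also lie in another annotated gene, mostly Gm43302, so reads of the 2 genes cannot be told apart. Gbp4 and Gbp5 reached at most 25.4 and 15.8 normalized counts. Over the 7 genes 4 differences were above 0 and 3 below, and 4 genes had both libraries numbered 4 on top, beside 23.3% of all gene sums.

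The interferon-stimulated effectors formed the largest group, with 25 genes, of which 21 had a log2 difference below 0 and 0 were called. Of these 25 genes, 15 had a mean under 50 normalized counts. Ifit2, Ifit3, Ifit3b and Ifit1, of a family that binds foreign RNA, lie in that order on chromosome 19 between 34550694 and 34650009. Ifit3 had 65.8 and 43.7 normalized counts under the WT label and 10.9, 7.21 and 44.4 under the p75NTR-/- label. Ifit3b had 77.5 and 41.6 (WT) and 5.94, 3.60 and 34.9 (p75NTR-/-). In both genes p75NTR-/- replicates 1 and 2 were far below the other 3 libraries, whereas p75NTR-/- replicate 4 was close to WT replicate 4. The difference was -2.47 ± 0.95 for Ifit3b, the widest of any member (unadjusted p = 0.0476, limma adjusted p = 0.934). It was -3.50 between the libraries numbered 1 but -0.25 between those numbered 4. In p75NTR-/- replicate 2, Ifit3b held only 3 counts, the counting limit given above, so the size of its difference is uncertain. Ifit3 and Ifit3b are near copies, with 61.8% of the 31-base stretches of Ifit3 found in Ifit3b, so the 2 rows are not independent and their separate levels are uncertain. Ifit2, of the same family, was higher and flat, with 255 and 259 (WT) and 207, 281 and 258 (p75NTR-/-) normalized counts and a difference of -0.06 ± 0.20. Ifit1 stayed at or below 14.8 and was at 0 in p75NTR-/- replicate 2.

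Interferon-induced transmembrane proteins block the entry of enveloped viruses and were among the most abundant members. Ifitm3 (chr7:141009586-141010770) had 251 and 705 normalized counts under the WT label and 442, 479 and 793 under the p75NTR-/- label, with the libraries numbered 4 highest and WT replicate 1 lowest. Ifitm2 (chr7:140954837-140955987) had 455 and 557 (WT) and 553, 434 and 518 (p75NTR-/-), a range of 1.28-fold. In mean TPM they stood at 88.9 and 78.8, although 55.5% of the 31-base stretches of Ifitm2 and 20.5% of those of Ifitm3 lie in other annotated genes. Ifitm10, a family member not known as an antiviral gene, had 90.3 and 186 (WT) and 41.5, 43.2 and 174 (p75NTR-/-), a 4.48-fold range in which replicates 4 of both labels led and WT replicate 1 came next. Its difference between the labels, -0.92 ± 0.75, was little more than its error.

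Ddx58, Ifih1 and Adar act on double-stranded RNA. Ddx58, which encodes the RNA sensor RIG-I, had 204 and 228 normalized counts under the WT label and 99.9, 112 and 252 under the p75NTR-/- label. p75NTR-/- replicates 1 and 2 were the lowest and p75NTR-/- replicate 4 the highest, and the difference was -0.61 ± 0.44. Ifih1, the sensor MDA5, stayed between 18.02 and 46.1, with all 3 libraries labelled p75NTR-/- below both labelled WT by a narrow gap. Adar, which edits double-stranded RNA, had 873 and 893 (WT) and 779.7, 876 and 938 (p75NTR-/-), a range of only 1.20-fold and a difference of -0.03 ± 0.17.

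Ifi27, a small mitochondrial protein strongly induced by type I interferon in many tissues, was the most abundant of the genes in which the labels did not overlap. Its sum was 649.6 and 629 under the WT label and 354, 432 and 528 under the p75NTR-/- label, a difference of -0.56 ± 0.22. The p in limma was 0.052 unadjusted and 0.934 adjusted. Its transcript ENSMUST00000085065 made 72.8% to 89.3% of the sum and had its sign, whereas ENSMUST00000140838 made 1.65% to 11.5% and was higher in every library labelled p75NTR-/- than in either labelled WT, at 31.5 ± 7.85 (SD, n = 3) against 13.5 ± 4.44 (SD, n = 2). Neither transcript was called (limma adjusted p = 0.962 for both). Ifi27l2a, a neighbour on chromosome 12 of the same family, had 15.7 and 14.6 (WT) and 5.94, 7.21 and 10.6 (p75NTR-/-) normalized counts. The difference was -0.89 ± 0.26 at the smallest unadjusted limma p among the members (0.0194), but the unadjusted p in DESeq2 was 0.301. Its highest count in a library was 16.

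The 3 poly-ADP-ribose polymerases of the interferon response had differences below 0, and none passed the test. Parp9 had 145 and 180.0 normalized counts under the WT label and 109, 72.1 and 161 under the p75NTR-/- label. Parp14, which lies near it on chromosome 16, had 43.2 and 29.1 (WT) and 16.8, 22.8 and 22.2 (p75NTR-/-), so that the labels did not overlap, with a difference of -0.77 ± 0.25 (limma adjusted p = 0.934). Parp12 had 312 and 238 (WT) and 281, 244 and 226 (p75NTR-/-). Isg15, the ubiquitin-like modifier, had a difference of the other sign at low counts, with 4.91 and 6.24 (WT) and 10.9, 7.21 and 14.8 (p75NTR-/-) normalized counts and 0.82 ± 0.32 on the log2 scale. Usp18, the protease that removes Isg15 from proteins, had at most 10.4. Rnf213, a large ubiquitin ligase, had 662 and 346 (WT) and 395, 436 and 303 (p75NTR-/-), highest in WT replicate 1.

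The remaining effectors are given in brief. Ifi204, Xaf1 and Ifit1 were each listed at 0 in 1 library. Bst2, the tether of budding viruses, was flat between 16.8 and 21.6 normalized counts, and Rsad2, the antiviral enzyme viperin, ran from 9.61 to 25.4. Ifi35 and Oasl2 stayed at or below 12.48. Ifi30, a lysosomal thiol reductase of antigen processing, had 37.3 and 20.8 (WT) and 44.5, 48.0 and 12.7 (p75NTR-/-), lowest in the libraries numbered 4.

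On the MHC class I path, all 7 genes that make, carry or load the peptide had log2 differences below 0, with a median of -0.27 and 0 called. B2m (chr2:122147686-122153083), the light chain that every class I molecule needs, was the most abundant member. It had 2930.3 and 2772 normalized counts under the WT label and 2082, 1711 and 2937 under the p75NTR-/- label, or 616.7 and 585.4 TPM against 444.9, 367.7 and 611.8 TPM. p75NTR-/- replicates 1 and 2 were the lowest and p75NTR-/- replicate 4 was level with the WT libraries, so the labels overlapped and the difference was -0.38 ± 0.27 (limma adjusted p = 0.934).

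Tap1 and Tap2 form the transporter that brings peptides into the endoplasmic reticulum, and they lie with Psmb9 and Psmb8 on chromosome 17 between 34181987 and 34216321. Tap1 had 235 and 309 normalized counts under the WT label and 180.1, 189.8 and 326 under the p75NTR-/- label. Tap2 had 172 and 212 (WT) and 142, 159 and 254 (p75NTR-/-). Both genes kept the same order, with the libraries numbered 4 on top and p75NTR-/- replicates 1 and 2 at the bottom, and differences between the labels of -0.27 ± 0.33 and -0.09 ± 0.31. Tapbp, or tapasin, which holds the heavy chain at the transporter, had 312 and 202 (WT) and 182, 227 and 208 (p75NTR-/-), with only WT replicate 1 apart.

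Psmb8, Psmb9 and Psmb10 are the catalytic subunits that replace their constitutive counterparts in the immunoproteasome. Psmb9 had 46.1 and 43.7 normalized counts under the WT label and 23.8, 24.03 and 41.2 under the p75NTR-/- label, so that its labels did not overlap, although p75NTR-/- replicate 4 was only just below WT replicate 4. Psmb8 had 21.6 and 28.1 (WT) and 20.8, 16.8 and 31.7 (p75NTR-/-), and Psmb10 had 289.5 and 365 (WT) and 269, 272 and 359 (p75NTR-/-). The differences were -0.63 ± 0.29, -0.14 ± 0.31 and -0.13 ± 0.22, and the smallest limma adjusted p was 0.934. The 5′ ends of Psmb9 and Tap1 overlap by annotation on opposite strands. The TPM of Psmb8, Psmb9 and Psmb10 was taken as a share of the summed TPM of these 3 and the constitutive Psmb5, Psmb6 and Psmb7. This share of RNA was 4.13% and 4.96% under the WT label and 3.24%, 3.18% and 4.92% under the p75NTR-/- label. The share in p75NTR-/- replicate 4 lay between those of the WT libraries. Most of it was Psmb10, at 20.4 to 27.35 TPM, while Psmb8 reached at most 2.05 and Psmb9 4.16 TPM. Over the list of constitutive proteasome and peptide loading genes, all 13 were measured, 0 were called and the median difference was 0.11. Both libraries numbered 4 were on top for 2 of the 13 and below the rest for 1, beside 23.3% and 21.1% of all gene sums.

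**Figure D4:**
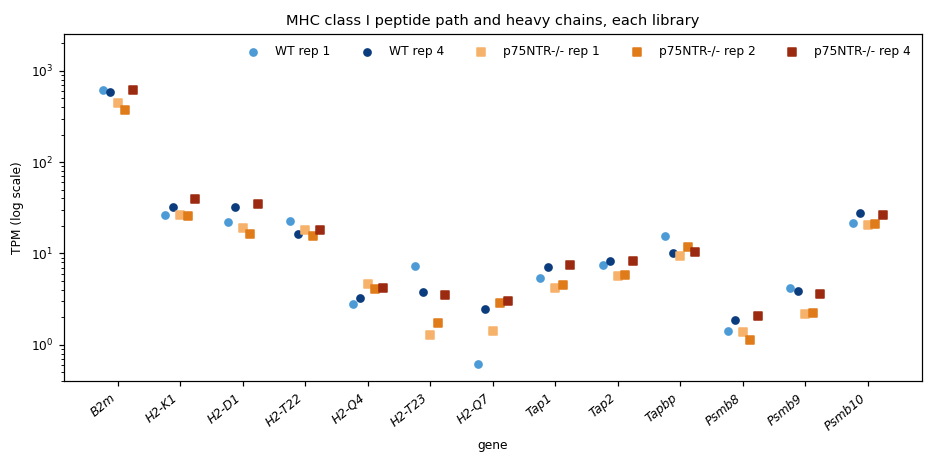
TPM (log axis) of 13 genes of the MHC class I path and heavy chains in each of the 5 libraries. Circles are the libraries labelled WT and squares those labelled p75NTR-/-. B2m, H2-K1, H2-D1, H2-T23, Tap1, Tap2, Psmb8, Psmb9 and Psmb10 have their 2 lowest points in p75NTR-/- replicates 1 and 2, H2-K1 and Psmb8 by a narrow gap.

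Of the 8 heavy chains, H2-K1 and H2-D1 are the classical ones present in this strain. H2-K1 (chr17:33996017-34000347) had 460.2 and 485 normalized counts under the WT label and 394, 475 and 586 under the p75NTR-/- label, a difference of 0.02 ± 0.22. H2-D1 (chr17:35262730-35267499) had 369 and 468 (WT) and 258, 256 and 501 (p75NTR-/-), with the libraries numbered 4 highest and p75NTR-/- replicates 1 and 2 lowest, and a difference of -0.37 ± 0.36. Their mean levels, 30.0 and 24.9 TPM, lay far under the 525.3 TPM of B2m. H2-K1 and H2-D1 share 22.1% and 28.1% of their 31-base stretches with other annotated genes, most of all with each other.

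The nonclassical heavy chains had differences of both signs. H2-T23 (chr17:36029773-36032855), whose product Qa-1 presents leader peptides to natural killer cell receptors, had 143 and 72.8 normalized counts under the WT label and 24.7, 33.6 and 69.7 under the p75NTR-/- label. It had the widest range of any member of mean 50 or more, and its labels did not overlap, but p75NTR-/- replicate 4 was 0.06 below WT replicate 4 on the log2 scale while p75NTR-/- replicate 1 was 2.49 below WT replicate 1. The difference was -1.37 ± 0.53 (unadjusted p = 0.0493, limma adjusted p = 0.934). H2-Q4 had 47.1 and 53.0 (WT) and 75.2, 66.1 and 71.8 (p75NTR-/-), all 3 libraries labelled p75NTR-/- above both labelled WT. The difference was 0.50 ± 0.16 (limma unadjusted p = 0.0293, adjusted p = 0.934), and the unadjusted p in DESeq2 was 0.220. H2-T22 had 512 and 369 (WT) and 405, 341 and 413 (p75NTR-/-), with overlapping labels. H2-Q7, H2-T10 and H2-M3 stayed at or below 24.3 normalized counts. Between 34.5% and 62.7% of the 31-base stretches of H2-T23, H2-Q4, H2-T22, H2-T10 and H2-Q7 occur in other annotated genes, so reads may have been split among them and each of these values is uncertain.

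Together the 8 heavy chains summed to 82.8 and 90.8 TPM under the WT label and 71.6, 66.9 and 104 TPM under the p75NTR-/- label. The libraries fell in the same order as for H2-D1, with p75NTR-/- replicate 4 highest and p75NTR-/- replicate 2 lowest. The 2 other genes of the H2 locus that the rule caught belong to other paths. H2-DMa, which loads peptides on class II molecules, had 107 and 84.3 (WT) and 76.2, 72.1 and 77.1 (p75NTR-/-) normalized counts, with a difference of -0.33 ± 0.18. H2-Ke6, a metabolic enzyme gene, had 866 and 828 (WT) and 1019, 831 and 886 (p75NTR-/-), and 86.3% of its 31-base stretches also lie in the annotated gene Gm20427. Of 8 class II genes only H2-Ab1 was analysed here, at 54.0 and 24.97 (WT) and 20.8, 24.03 and 46.5 (p75NTR-/-).

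Genes of the response outside the rule were read from lists. Of 51 other interferon-stimulated genes 36 were measured and 0 were called, with a median difference of -0.14, 24 below 0 and 12 above, and both libraries numbered 4 were on top for 14 and below the rest for 3, beside 23.3% and 21.1% of all gene sums. Irgm2, an immunity-related GTPase, was at 0 in 3 libraries and at 21.9 and 16.9 in the 2 numbered 4. Casp1, the inflammatory caspase, had 31.4 and 109 normalized counts under the WT label and 45.5, 15.6 and 116 under the p75NTR-/- label, the same order. Eif2ak2, the RNA-dependent kinase PKR, was level at 318 and 338 (WT) and 351, 249 and 351 (p75NTR-/-). Of 22 genes of nucleic acid sensing 17 were measured and 0 were called. Cgas, the DNA sensor, had 12.8 and 13.5 (WT) and 46.5, 32.4 and 44.4 (p75NTR-/-), above both WT libraries in all 3 labelled p75NTR-/-, with a difference of 1.56 ± 0.22 that did not pass the test (limma adjusted p = 0.934).

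**Figure D5:**
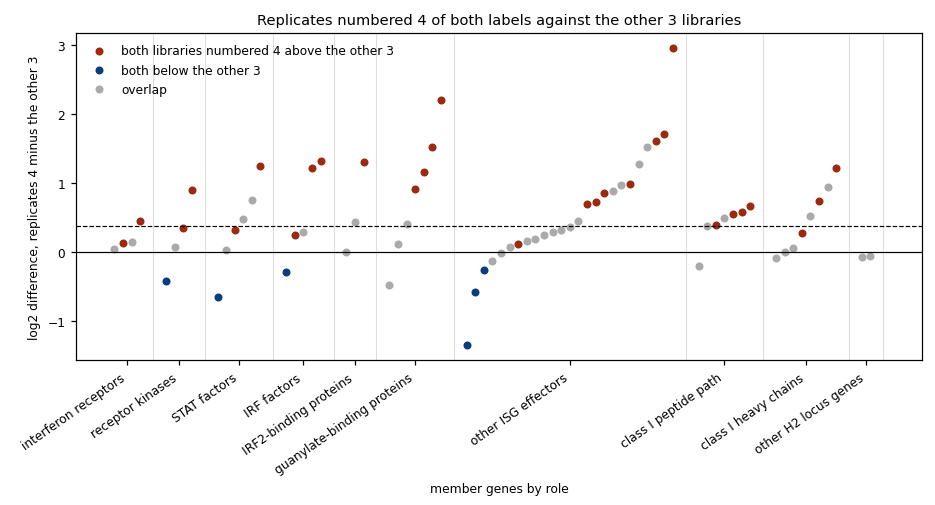
Log2 difference between the libraries numbered 4 of both labels and the other 3 libraries (vertical axis) for each member, grouped by role along the horizontal axis. Red points have both libraries numbered 4 above the other 3 (29 members), blue points both below (6) and grey points overlap (36); the dashed line is the members' median of 0.38.

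Split by role, the libraries numbered 4 were on top for 4 of 7 guanylate-binding proteins, 4 of 7 genes of the class I peptide path, 3 of 8 heavy chains, 3 of 5 Irf factors and 8 of 25 other effectors (32%). They were also on top for 2 of 4 interferon receptors, 2 of 4 receptor kinases, 2 of 6 Stat factors and 1 of 3 Irf2-binding proteins. The share over all gene sums was 23.3%, and each group is small. The 2 other H2 locus genes showed this order in 0 cases. Among the 44 members of mean 50 or more it was 20 and among the 27 of lower mean 9. Of the 22 members with this order and a promoter window, 6 had a response element core and 6 a gamma-activated site in the 250 bases before the start. Of the other 37 with a window, it was 14 and 5. Over all genes with a window the shares were 8.18% and 8.13%, and no test of this split was made. The highest library was p75NTR-/- replicate 4 for 28 members (39.4%, beside 18.7% of all gene sums), WT replicate 1 for 19 (26.8% beside 28.2%) and WT replicate 4 for 13 (18.3% beside 14.9%). It was p75NTR-/- replicate 1 for 6 members (8.45% beside 21.3%) and p75NTR-/- replicate 2 for 5 (7.04% beside 16.9%).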

How the data were processed

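RNA-Seq libraries of 5 NSPC cultures, 2 labelled WT and 3 labelled p75NTR-/-, were made with a stranded mRNA kit from 500 ng RNA each. Per the labels and the study's methods, the authors checked reads with FastQC, quantified them with Salmon 0.10.2 against GRCm38.p6 and normalized them with DESeq2 1.22.0 in R 3.6.1. The deposited table of the whole series gives for each transcript a normalized count with 0.5 added, treated here as a signal, and a TPM, recorded as a score because 303 repeated lines raise its column sums. The repeats were dropped, which left 22227 of 22530 lines. The table also holds the authors' mean, fold change and p-values of their own comparison, which were not used, and the count of unused per-sample columns was 0. Less 0.5, 100% of values in every library were whole multiples of 1 step (within 0.006), which gave back the counts. The sum over transcripts of a symbol, or of an identifier where no symbol is given, made 12588 gene sums.

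The labels were compared with limma 3.58.1 (lmFit and eBayes, two-sided) on log2 of gene sum plus 1 with all 5 libraries, with Benjamini-Hochberg adjustment over all gene sums or all transcripts, and a fold change is on that scale, which understates changes of low genes. An exact two-sided permutation test of 2 against 3 libraries cannot give a p under 0.1, so none was used for single values. Alternatives were pseudocounts of 0.5 and 5, a filter on the mean, TMM factors, TPM, edgeR 4.0.16, DESeq2 1.42.0 on the recovered counts, a replicate block and leaving out each library. The fits were tested on simulated data. Coordinates, transcript lengths and shared 31-base stretches came from GENCODE M21 on GRCm38, which matched 107 of the 108 member transcripts, and promoters from RefSeq. Figures were drawn with matplotlib 3.10.9.

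The members and the lists of other genes were chosen with earlier results of these data known. Values in every library were given by rule for the core signalling and class I genes, for the 10 members of mean 50 or more with the largest difference between labels, the 10 with the widest range and the 10 with the highest TPM. Other members, among them Ifit3, Ifit3b, Gbp6 and Isg15, and the list genes were named after their values were seen. The values of 1 member are not reported here, although it counts in the totals over the members.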

Additional observations from a re-analysis of the deposited data

How the results depend on the processing

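All 14 alternatives gave 0 called members and 0 called member transcripts. Over all gene sums the number called went from 1 to 0 with TPM, to 0 with edgeR, to 7 with DESeq2 and to 0 with the replicate block, and ran from 0 to 1 when each library was left out, with 0 without WT replicate 1 and 0 without p75NTR-/- replicate 2. The same-numbered libraries deviated together (r = 0.256 for number 1 and 0.476 for number 4 over 10786 gene sums), but there are only 2 such pairs, and the study describes its replicates as separate NSPC preparations without saying what a shared number marks, so the replicate block is given here alone. Under the block 2 members had an unadjusted p under 0.05 in limma, beside 240 of 12588 gene sums (1.91%). When each library was left out it was 0 to 18, with 18 without p75NTR-/- replicate 4, beside 1370 gene sums (10.9%), and 0 without p75NTR-/- replicate 1, beside 135 (1.07%). The 14 members without overlap between the labels became 13 with TMM factors and 16 to 40 when each library was left out, with 28 without WT replicate 1, 35 without WT replicate 4 and 40 without p75NTR-/- replicate 4. The shares over all gene sums were 15% with all libraries and 40.8%, 62.9% and 46.1% without these 3 in turn, since fewer libraries are compared. Of 305 alternative log2 differences over 21 members, 298 kept their sign. These 21 include the 14 members without overlap, whose sign cannot turn when a library is left out or within a replicate number. The count is therefore no measure of stability. Within replicate number 4 it was reversed for Ddx58 (0.15), Gbp3 (-0.20), Irf2bp2 (0.19), Irf2bpl (-0.12) and Stat3 (0.21). When each library was left out Gbp3 ran from -0.030 to 1.57 and Irf2bpl from -0.14 to 1.05, both reversed without WT replicate 1, and the cause was not tested. The 29 members with both libraries numbered 4 on top were 29 with TMM factors and 26 with TPM, alternatives chosen after seeing the data, as was leaving out libraries for the members without overlap. Counting error limits the 27 members of mean under 50, of which 3 are listed at 0 in a library.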
